A study of Mus musculus with 8 samples.

Results

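The desmosome genes described here were the 10 symbols Dsg1a, Dsg2, Dsg3, Dsc1, Dsc2, Dsc3, Jup, Pkp1, Pkp3 and Dsp, chosen by name from the 24421 symbols of the count files as the desmosomal cadherins, plakoglobin, plakophilins and desmoplakin. All 10 were found, and all 10 were among the 13016 genes that passed the filter on low counts and were tested. They were measured by bulk RNA sequencing of keratinocytes from mouse skin in 8 libraries, 4 from knockout mice (InvEE K5 Cre+ HMGB1 fl/fl) and 4 from control mice (InvEE K5 Cre- HMGB1 fl/fl), on a CBA x C57Bl/6J background. Both groups carried the InvEE transgene, an active form of the kinase MEK1 driven by the involucrin promoter in the upper layers of the epidermis, and both carried floxed alleles of Hmgb1, which encodes a DNA-binding nuclear protein that is also released as a danger signal. K5-Cre acts in basal keratinocytes and their descendants and was present in the knockouts alone, so effects of Cre itself and of Hmgb1 loss cannot be told apart. The labels give neither age nor sex, and they do not say whether each library came from its own mouse. The p-values therefore reflect library-to-library spread, part of which may be technical. The comparison asks which desmosome transcripts differ when keratinocytes lose Hmgb1.

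A desmosome is a spot-like junction that ties the keratin filaments of neighbouring keratinocytes together and lets the epidermis withstand stretching. Desmogleins and desmocollins are cadherins that span the membrane and bind those of the next cell in the presence of calcium. Plakoglobin and the plakophilins, proteins with armadillo repeats, bind the cadherin tails inside the cell, and desmoplakin links them to keratins. The cadherins change with the layer: desmoglein 3, desmocollin 3 and desmoglein 2 belong mainly to the lower epidermis, desmoglein 1 and desmocollin 1 mainly to the upper.

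The libraries held 30506676 to 34229030 counts on genes. Hmgb1 was at 118 ± 5.87 CPM in knockouts and 591 ± 21.0 CPM in controls (CPM, counts scaled to a common library size with TMM factors, SD, n = 4 each). The keratinocyte markers Krt5, Krt14, Krt1, Krt10, Trp63, Ivl and Lor summed to 53373 to 59197 CPM in knockouts and 44504 to 54551 CPM in controls. Markers of other cell types were low: 6 fibroblast genes summed to 3.41 to 24.0 CPM in knockouts and 5.98 to 12.0 CPM in controls, and 5 leukocyte genes to 18.4 to 51.5 and 18.6 to 60.3 CPM. The fibroblast gene Dcn was itself called higher, at 1.92 ± 0.615 CPM in knockouts and 0.663 ± 0.229 CPM in controls (edgeR adjusted p = 0.0201), and its part in the results was not tested. Of the 3 muscle markers, Des was at 0 in every library. Transcripts of the Y chromosome were present in knockout replicate 1 and control replicates 2 and 3 alone, so the sexes were unevenly spread over the groups. In bulk libraries, fewer cells of a type and less RNA per cell cannot be told apart.

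Jup, which encodes plakoglobin, was the 1 member of the 10 that passed the test, and it rose 1.56-fold in the knockout. The fitted log2 fold change of every member was above 0, with a median of 0.44 and a range of 0.20 to 0.71, beside a median of -0.02 over all tested genes, of which 46.9% were above 0. No member was called lower (edgeR's quasi-likelihood test, adjusted p under 0.05), 0 had an unadjusted p under 0.05 in that direction, and DESeq2 and limma-voom also called 0 lower. Of all tested genes 8.87% were called, 4.33% higher and 4.54% lower, so 1 call among 10 members is close to what the whole table gives. At an unadjusted p under 0.05, 6 of the 10 members were higher, against 13.0% of all tested genes. The members and the related lists below were chosen with earlier results of these data known. The members also varied together over the libraries, so such shares are no test of the set. Levels did not overlap between the groups, with the knockouts above, for Dsg3, Jup and Pkp1, and this held for 7.95% of all tested genes (17.0% in either direction). Scaling by library totals in place of TMM moved the median of all genes to -0.13 and that of the members to 0.33, and the members' median was 0.27 in the 5 libraries lacking Y-linked transcripts. Scaling by library totals also turned the split of all calls from 563 higher and 591 lower to 370 higher and 997 lower, and Jup stayed the 1 member called in that fit.

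**Figure D1:**
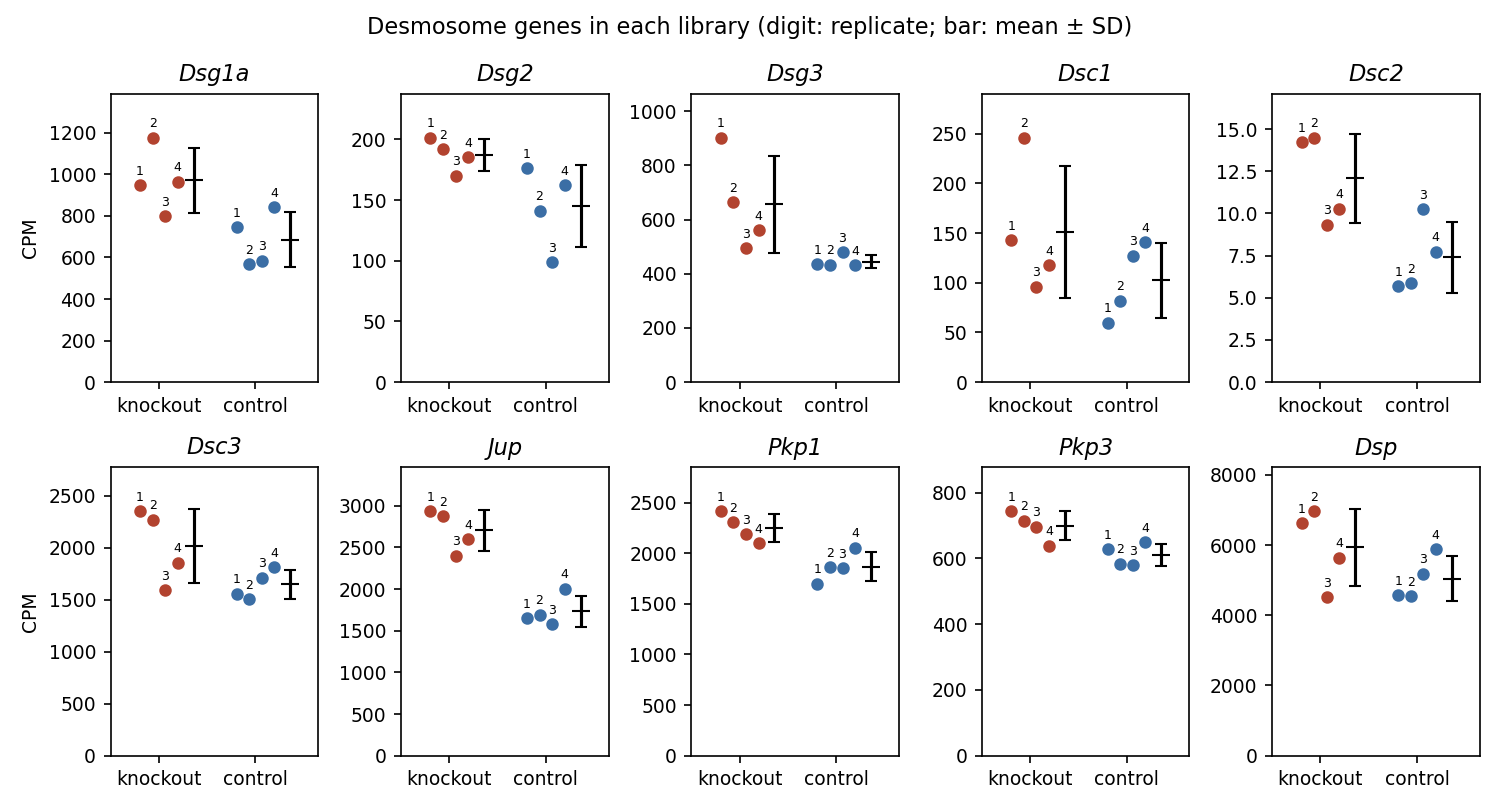
CPM (linear axis from 0, each gene on its own scale) of the 10 desmosome genes in each library, knockouts in red and controls in blue, with the replicate number at each point and the mean ± SD (n = 4) as a bar. Jup lies between 2401 and 2938 CPM in knockouts and between 1577 and 2005 CPM in controls, and knockout replicates 1 and 2 lie above every control in all 10 panels.

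**Figure D2:**
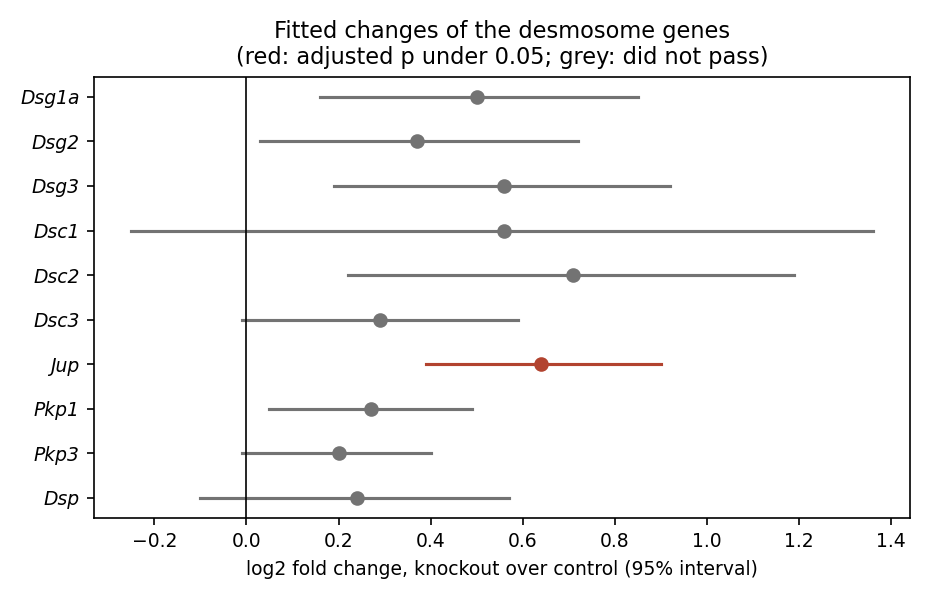
Fitted log2 fold change, knockout over control, of each desmosome gene (point) with its 95% interval (line), from edgeR. Jup, in red, passed at an adjusted p under 0.05 with 0.64, and the other 9, in grey, did not.

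Plakoglobin is shared by desmosomes and adherens junctions, where it can take the place of its close relative beta-catenin. Jup was at 2938, 2877, 2401 and 2602 CPM in knockout replicates 1 to 4, against 1648, 1695, 1577 and 2005 CPM in control replicates 1 to 4. Every knockout library was above every control library, with control replicate 4 the highest of the controls. The log2 fold change was 0.64 (SE 0.11, 95% interval 0.39 to 0.90, edgeR adjusted p = 0.00911), and the exact two-sided permutation test of the CPM gave 0.0286, the smallest p that 4 against 4 libraries allow. Without any 1 library the adjusted p ran from 0.0107 to 0.0358 and the log2 fold change from 0.60 to 0.72. Among the 5 libraries that lacked Y-linked transcripts, 3 knockouts and 2 controls, it was 0.52 and the call was lost (edgeR adjusted p = 0.113). In that smaller fit edgeR called 0 members, 3 had an unadjusted p under 0.05 (16.8% of all tested genes did, in either direction), and 1.06% of tested genes were called higher.

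Desmoplakin is the plakin that anchors keratin filaments to the plaque. Dsp was at 6622, 6969, 4522 and 5644 CPM in knockout replicates 1 to 4, against 4572, 4536, 5184 and 5886 CPM in control replicates 1 to 4. Knockout replicate 3 was below every control, and replicates 1 and 2 above every control. The log2 fold change of 0.24 did not pass (SE 0.15, 95% interval -0.10 to 0.57, edgeR adjusted p = 0.352). It was 0.12 on library totals, 0.13 in the 5 libraries lacking Y-linked transcripts and 0.15 without knockout replicate 2.

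The sequences just upstream are shown for Jup, the member that passed, and for Dsp, the partner in the plaque with the most counts that did not. Whether these sequences have a part in the levels was not tested. These 2 of the 10 members were found in the promoter table from RefSeq (build GRCm38.p6, that is, mm10). Jup occupies chromosome 11, 100368856 to 100397839 on the minus strand, and Dsp chromosome 13, 38151294 to 38198577 on the plus strand. The bases shown lie outside both annotated genes, 201 of them for Jup (chr11:100397840-100398040, minus strand) and 250 for Dsp (chr13:38151044-38151293, plus strand), written 5′ to 3′ towards the gene with CCAAT boxes and GC boxes in capitals.
Jup: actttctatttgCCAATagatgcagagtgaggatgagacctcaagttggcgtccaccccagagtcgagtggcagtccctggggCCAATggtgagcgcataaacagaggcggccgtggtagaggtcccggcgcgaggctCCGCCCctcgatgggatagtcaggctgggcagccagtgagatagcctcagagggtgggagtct
Dsp: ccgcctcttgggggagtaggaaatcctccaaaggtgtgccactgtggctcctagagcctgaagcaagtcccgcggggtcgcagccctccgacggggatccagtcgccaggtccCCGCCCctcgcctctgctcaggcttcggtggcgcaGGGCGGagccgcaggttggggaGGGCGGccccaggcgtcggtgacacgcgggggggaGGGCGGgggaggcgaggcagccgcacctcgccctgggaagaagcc
Searched on both strands, the letters CCAAT matched at 2 places upstream of Jup, starting 189 and 118 bases before the annotated gene, and at 0 places upstream of Dsp. The letters GGGCGG matched once upstream of Jup, 63 bases before the gene on the opposite strand, and 4 times upstream of Dsp, at 137, 102, 80 and 45 bases. Among 32851 promoters, windows of the same length held CCAAT in 28.6% (201 bases) and 33.8% (250 bases) and GGGCGG in 24.8% and 32.7%. TATAAA, the AP-1 letters TGANTCA and the grainyhead-like letters AACNNGTT were in neither window, and no 2 of the matches found overlapped. The Jup window was 60.2% G and C and the Dsp window 72.4%, against medians of 51.7% and 52.4% over all promoters.

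The plakophilins strengthen the plaque by binding desmoplakin and the cadherins. Pkp1, which is prominent in the upper epidermis, was at 2417, 2309, 2188 and 2098 CPM in knockout replicates 1 to 4, against 1699.9, 1863, 1852 and 2054 CPM in control replicates 1 to 4. The groups did not overlap, but knockout replicate 4 and control replicate 4 nearly met. Its log2 fold change of 0.27 did not pass in edgeR (SE 0.10, 95% interval 0.05 to 0.49, adjusted p = 0.116), while DESeq2 called it (adjusted p = 0.0356), and on library totals it was 0.16. Pkp3, which is found through all layers of the epidermis, was at 744, 715, 697 and 639 CPM in knockout replicates 1 to 4, against 629, 584, 580.2 and 649.6 CPM in control replicates 1 to 4. Knockout replicate 4 lay below control replicate 4, and the other knockouts above every control. Its log2 fold change of 0.20 was the smallest of the 10 (SE 0.09, 95% interval -0.01 to 0.40, edgeR adjusted p = 0.206), at 0.09 on library totals and 0.10 in the 5 libraries lacking Y-linked transcripts.

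Of the desmogleins, Dsg1a, the target of autoantibodies in pemphigus foliaceus, was at 946, 1177, 798 and 964 CPM in knockout replicates 1 to 4, against 745, 568, 584 and 842 CPM in control replicates 1 to 4. Knockout replicate 3 fell below control replicate 4, and the other knockouts were above every control. Its log2 fold change of 0.50 did not pass in edgeR (SE 0.16, 95% interval 0.16 to 0.85, adjusted p = 0.0703). It passed with DESeq2 (adjusted p = 0.0193), and in edgeR without knockout replicate 3 (adjusted p = 0.048) or control replicate 4 (adjusted p = 0.04995), and was 0.30 in the 5 libraries lacking Y-linked transcripts. The annotated transcripts of Dsg1a share 31.6% of their 50-base stretches with those of its near copy Dsg1b and 18.8% with those of Dsg1c, so the counts of these genes are uncertain. With the counts of all 3 added into 1 row, an alternative chosen after seeing the data, the log2 fold change was 0.55 (edgeR adjusted p = 0.0574).

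Dsg3, the target of autoantibodies in pemphigus vulgaris, was at 903, 665, 494 and 561 CPM in knockout replicates 1 to 4, against 435, 434, 479.9 and 433 CPM in control replicates 1 to 4. Every knockout was above every control, and the knockouts were far more spread than the controls, with an SD of 179 against 23.0 CPM. The log2 fold change of 0.56 did not pass in edgeR (SE 0.17, 95% interval 0.19 to 0.92, adjusted p = 0.0618, exact permutation p = 0.0286). It passed with DESeq2 (adjusted p = 0.0148), with a term for Y-linked transcripts (edgeR adjusted p = 0.0288) and without knockout replicate 3 (edgeR adjusted p = 0.027), and was 0.37 without knockout replicate 1. Dsg2, the desmoglein found in all tissues with desmosomes, was at 201, 192, 170.0 and 185 CPM in knockout replicates 1 to 4, against 176, 141, 98.9 and 162 CPM in control replicates 1 to 4. Only knockout replicate 3 lay below a control, replicate 1. For Dsg2 the log2 fold change was 0.37 (SE 0.16, 95% interval 0.03 to 0.72, edgeR adjusted p = 0.162), 0.23 without control replicate 3 and 0.11 in the 5 libraries lacking Y-linked transcripts.

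Among the desmocollins, the partners of the desmogleins, Dsc3 was by far the highest. It was at 2351, 2267, 1588 and 1855 CPM in knockout replicates 1 to 4, against 1556, 1505, 1712 and 1811 CPM in control replicates 1 to 4. Knockout replicate 3 lay among the controls. The log2 fold change of 0.29 did not pass (SE 0.14, 95% interval -0.01 to 0.59, edgeR adjusted p = 0.206), and it was 0.18 on library totals and also in the 5 libraries lacking Y-linked transcripts. Dsc1, which is made in the upper layers, was at 143, 246, 96.2 and 118 CPM in knockout replicates 1 to 4, against 59.6, 82.2, 127 and 141 CPM in control replicates 1 to 4. The groups overlapped widely, and knockout replicate 2 was the highest of all libraries. Its log2 fold change of 0.56 had the widest error of the 10 (SE 0.35, 95% interval -0.25 to 1.36, edgeR adjusted p = 0.356), and it was 0.22 without knockout replicate 2 and 0.37 without control replicate 1.

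Dsc2, the desmocollin of simple epithelia and heart, was at 14.2, 14.5, 9.34 and 10.3 CPM in knockout replicates 1 to 4, against 5.70, 5.88, 10.3 and 7.74 CPM in control replicates 1 to 4. Control replicate 3 stood above the other controls and above knockout replicate 3. The log2 fold change of 0.71, the largest fitted value of the 10, did not pass in edgeR (SE 0.22, 95% interval 0.22 to 1.19, adjusted p = 0.0701). It passed with DESeq2 (adjusted p = 0.0172) and in edgeR without control replicate 3 (adjusted p = 0.0245, log2 fold change 0.91). All 6 cadherin genes lie in 1 cluster on chromosome 18, in which the desmocollin genes run on the minus strand and the desmoglein genes on the plus strand.

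The libraries differed in the same way for most members. Knockout replicates 1 and 2 were above every control for 10 of the 10 genes, knockout replicate 4 for 7 and knockout replicate 3 for 4. The share of all tested genes above every control in each of these libraries was not counted, so these numbers do not set the members apart from other genes. These libraries also had different TMM factors, 0.906 and 0.950 in knockout replicates 1 and 2 and 1.000 and 0.999 in replicates 3 and 4, against 1.02 to 1.06 in controls. On library totals alone the numbers were 6, 9, 3 and 5 of 10 for knockout replicates 1 to 4. Whether the scaling has a part in the order of the knockouts was not tested. Summed over the 10 genes, the level was 15588 ± 2159 CPM in knockouts and 12284 ± 1191 CPM in controls (SD, n = 4 each), and the groups overlapped. The 10 genes took 1.30 to 1.66% of all counts on genes in knockouts and 1.17 to 1.43% in controls. The number of members called was 3 without knockout replicate 3 (Dsg1a, Dsg3 and Jup), 2 without control replicate 3 (Dsc2 and Jup) and 2 without control replicate 4 (Dsg1a and Jup), and 1, Jup, without any other library. DESeq2 called 5 members higher, Dsg1a, Dsg3, Dsc2, Jup and Pkp1, where it called 7.65% of all the genes it tested higher.

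**Figure D3:**
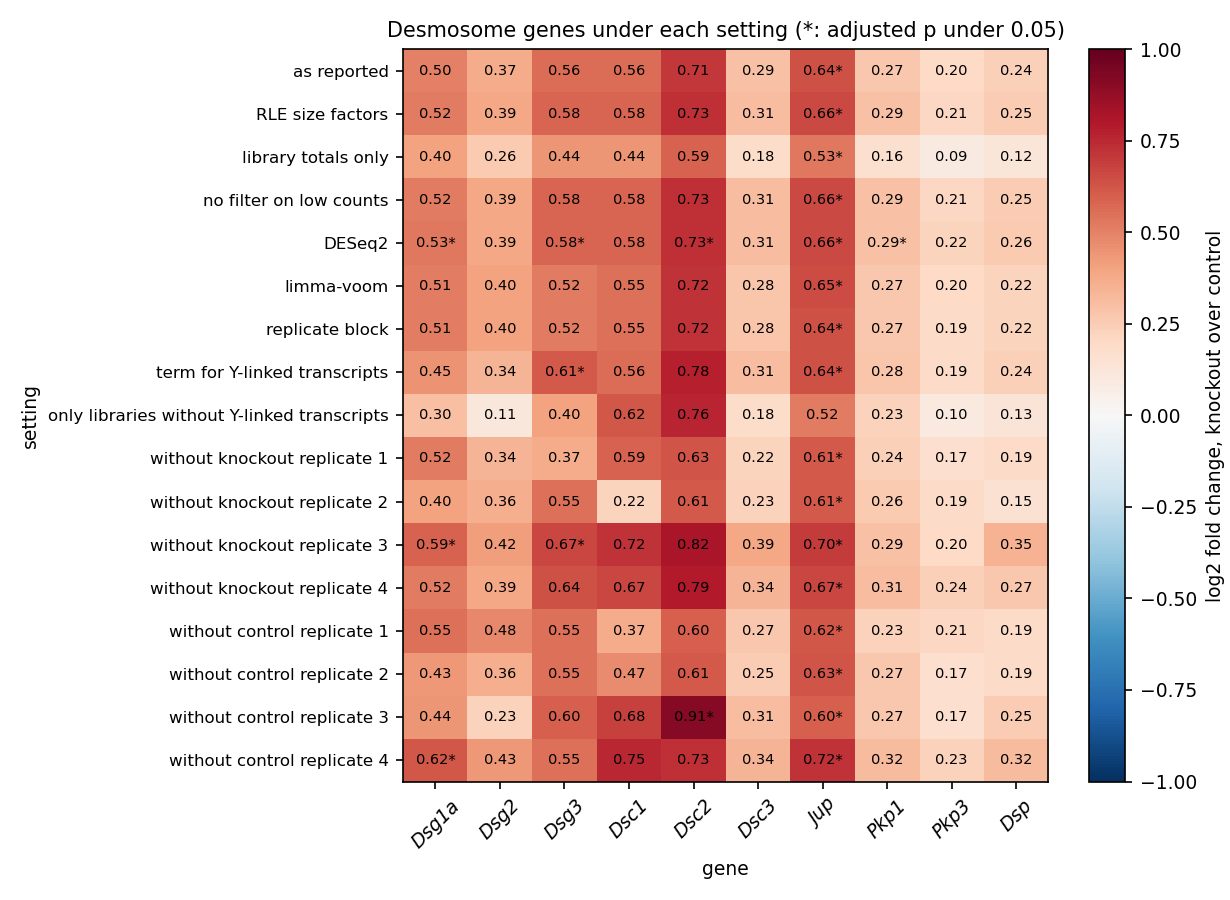
Log2 fold change, knockout over control, of each desmosome gene (columns) as reported and under each alternative (rows), coloured from blue (lower in knockouts) to red (higher), with a star where the adjusted p was under 0.05. Every value is above 0, Jup has a star in every row but that of the libraries without Y-linked transcripts, and Dsg2, Dsc1, Dsc3, Pkp3 and Dsp have none.

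Levels of different genes were compared per kb of annotated exon, in CPM per kb (exons of the protein-coding transcripts of GENCODE vM21). Jup was first in both groups, at 840 ± 77.5 CPM per kb in knockouts and 538 ± 58.6 CPM per kb in controls (SD, n = 4 each). Dsp followed at 619 ± 115 in knockouts and 526 ± 66.2 CPM per kb in controls. The ranges of Jup and Dsp overlapped in controls and did not in knockouts, where those of Dsp and Pkp1 overlapped. After these came Pkp1, Dsc3, Pkp3, Dsg1a and Dsg3, in the same order in both groups and with ranges that did not overlap between neighbours. Dsc1 and Dsg2 came next, with overlapping ranges in both groups, and Dsc2 was last at 2.61 ± 0.573 CPM per kb in knockouts and 1.60 ± 0.458 CPM per kb in controls. Of the summed level per kb of the 3 desmogleins, Dsg1a held 59.6% ± 5.23 in knockouts and 59.3% ± 4.23 in controls, and Dsg3 32.4% ± 5.34 and 32.1% ± 4.89. Stretches shared with Dsg1b and Dsg1c make the level of Dsg1a and these shares uncertain, and Dsg1b was not part of the sum. The annotation used for counting is not given, so its exons may differ from those used here. Dsc3 held 91.1% ± 2.38 of the desmocollin level in knockouts and 92.5% ± 2.03 in controls (SD, n = 4 each).

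To see whether members changed relative to one another, 6 ratios were formed within each library, which needs no scaling between libraries. Dsp over Jup was lower in every knockout than in every control, at a log2 ratio of 1.12 ± 0.15 in knockouts and 1.54 ± 0.13 in controls (SD, n = 4 each). The difference was -0.42 (exact two-sided permutation p = 0.0286, adjusted over the 6 ratios 0.0857), so it missed the threshold after adjustment. Dsg3 over Dsc3 was higher in every knockout, at -1.64 ± 0.18 in knockouts and -1.88 ± 0.12 in controls (difference 0.24, exact permutation p = 0.0286, adjusted 0.0857). The ratios between genes of the upper and the lower layers overlapped between the groups. Dsg1a over Dsg3 was 0.59 ± 0.35 in knockouts and 0.60 ± 0.32 in controls (exact permutation p = 1.0), with knockout replicate 1 lowest at 0.07. Dsc1 over Dsc3 was -3.82 ± 0.41 in knockouts and -4.08 ± 0.47 in controls (exact permutation p = 0.486). Dsc1 over Dsc2 differed by -0.18 and Pkp1 over Pkp3 by 0.08 (exact permutation p = 0.457 and 0.143).

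**Figure D4:**
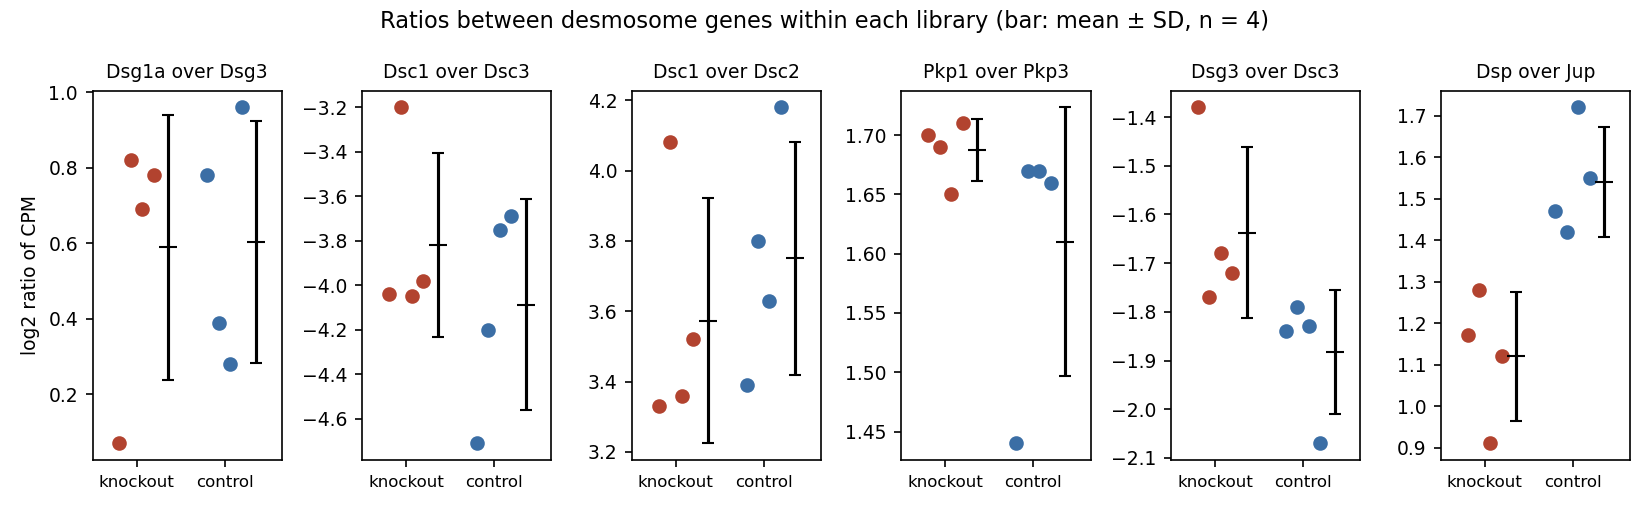
Log2 ratio of the CPM of paired desmosome genes in each library (points), knockouts in red left of controls in blue, with the mean ± SD (n = 4) as a bar. Each panel has its own axis. Dsp over Jup runs from 0.91 to 1.28 in knockouts and from 1.42 to 1.72 in controls.

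Other parts of the desmosome were read from a list of 10 further components, of which 7 were tested. Of these 4 rose, 3 did not pass and 0 were called lower, against 4.33% and 4.54% of all genes (edgeR, 0 lower also at an unadjusted p under 0.05). DESeq2 and limma-voom also called 0 lower. The median log2 fold change of the 7 was 0.45. At an unadjusted p under 0.05, 1 gene of the list was lower with DESeq2 and 1 in edgeR with no filter on low counts. Genes below the filter were also fitted there. Kazn, which encodes the desmosome-associated kazrin, was at 67.9 ± 7.33 CPM in knockouts and 44.7 ± 6.22 CPM in controls (SD, n = 4 each, log2 0.60, adjusted p = 0.0135). Dsg1b rose to 116 ± 30.0 CPM, against 60.4 ± 14.5 CPM in controls (log2 0.94, adjusted p = 0.0275). Its annotated transcripts share 45.5% of their 50-base stretches with those of Dsg1a, so its counts are uncertain. Perp, a tetraspan membrane protein of desmosomes and a target of p63, rose to 3489.6 ± 393 CPM, against 2556 ± 150 CPM in controls (log2 0.45, adjusted p = 0.0322). Evpl, the plakin envoplakin, rose 1.36-fold (adjusted p = 0.0453), while its partner Ppl, at 621 ± 61.1 CPM in knockouts and 499 ± 61.5 CPM in controls, and Pkp4, at 214 ± 6.07 and 219 ± 21.3 CPM, did not pass. Dsg1c, Dsg4 and Pkp2 were below the filter, at no more than 0.401 CPM in any library. Their means were 0.323, 0.0421 and 0.0910 CPM in knockouts and 0.269, 0.0436 and 0.269 CPM in controls. The count fell to 1 without knockout replicate 1 or 2 or control replicate 1, 2 or 3, and to 1 with the replicate number as a block.

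Adherens junctions share plakoglobin with desmosomes, and 5 of 12 tested genes of that list rose, 7 missed the threshold and 0 were called lower (1 lower at an unadjusted p under 0.05, 0 lower with DESeq2 and limma-voom, 1 lower on library totals). Of all tested genes 4.33% were called higher and 4.54% lower. The list had a median log2 fold change of 0.31. Pvrl4 and Pvrl2, nectins that start cell contacts, were at 140 ± 25.3 and 171 ± 19.8 CPM in knockouts, against 76.9 ± 23.2 and 110.1 ± 22.5 CPM in controls (adjusted p = 0.0286 and 0.0303). Ctnnd1, p120-catenin, rose to 671 ± 98.2 CPM, against 484 ± 3.33 CPM in controls (adjusted p = 0.0309), and Vcl, vinculin, rose to 264 ± 65.7 CPM, against 172 ± 9.59 CPM in controls (adjusted p = 0.0368). The fifth, E-cadherin Cdh1, is named after its values were seen, at 1746 ± 449 CPM in knockouts and 1097 ± 107 CPM in controls (adjusted p = 0.0371). Ctnnb1, beta-catenin, the relative of plakoglobin, was at 626 ± 34.4 CPM in knockouts and 639 ± 42.2 CPM in controls, with a log2 fold change of -0.03 (95% interval -0.23 to 0.17, adjusted p = 0.865). Ctnna1 was at 614 ± 86.7 CPM in knockouts and 484 ± 47.5 CPM in controls (adjusted p = 0.101). The count was 0 without knockout replicate 1, knockout replicate 2 or control replicate 2 (8 of the 12 had an unadjusted p under 0.05 in each, against 20.1 to 22.3% of all tested genes). It was 1 without control replicate 1 or 3, 2 without knockout replicate 4 or control replicate 4, and 2 with the replicate number as a block.

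Of 19 tested genes for the assembly, trafficking, shedding and calcium supply of desmosomes, 3 rose, 1 fell and 15 missed the threshold (1 higher and 2 lower on library totals), and the median log2 fold change was -0.04. The shares called over all tested genes were 4.33% higher and 4.54% lower. Cast, the calpain inhibitor calpastatin, rose to 349 ± 65.0 CPM, against 238 ± 14.5 CPM in controls (log2 0.55, adjusted p = 0.0274). Rab11a, a GTPase of recycling endosomes, and Shoc2, a scaffold of RAS signalling that binds the desmoglein 1 partner erbin, rose 1.29-fold and 1.38-fold (adjusted p = 0.0276 and 0.0404). Flot1, a flotillin of membrane rafts, fell to 13.0 ± 1.10 CPM, against 17.9 ± 1.61 CPM in controls (log2 -0.46, adjusted p = 0.035), a call that was lost in 11 of 16 alternatives. Among these were no filter on low counts, the replicate block, the term for Y-linked transcripts and leaving out any 1 library but control replicate 4 (adjusted p of 0.0506 to 0.253). Rhoa and the calcium pump Atp2a2 were at 455 ± 16.4 and 373 ± 44.3 CPM in knockouts and 397 ± 30.3 and 414 ± 110 CPM in controls and did not pass. Counts were 0 without knockout replicate 1 or 2 or control replicate 1 or 2, and 1 without control replicate 3 or 4 or with the replicate number as a block. In the fits with 0, in that order, 4, 5, 6 and 6 of the 19 had an unadjusted p under 0.05. Of all tested genes 22.3, 20.1, 26.0 and 21.9% did.

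Of the 10 keratins anchored at desmosomes, 2 rose, 1 fell and 7 did not pass, against 4.33% higher and 4.54% lower of all tested genes. The count was 1 without knockout replicate 1 and 0 without knockout replicate 2 or control replicate 2 (4 at an unadjusted p under 0.05 in each, against 20.1 and 21.9% of all tested genes). Krt10 and Krt16 rose 1.77-fold and 1.79-fold and Krt2, at 0.418 ± 0.161 CPM in knockouts and 6.25 ± 6.45 CPM in controls, fell. The call of Krt2 was lost in 9 of 16 alternatives (adjusted p of 0.0517 to 0.109, log2 fold change -4.25 to -1.89 over all 16), with limma-voom, with no filter on low counts, in the 5 libraries lacking Y-linked transcripts, and without any 1 knockout or control replicate 2 or 3. The basal Krt5 and Krt14 had log2 fold changes of 0.03 and -0.02. Among 10 transcription factors of epidermal junction genes 2 rose, 1 fell and 7 did not pass, beside the same shares of all tested genes, with 1 called without knockout replicate 2. Grhl3, a grainyhead-like factor of barrier formation, rose to 89.5 ± 29.8 CPM, against 37.7 ± 6.25 CPM in controls (log2 1.25, adjusted p = 0.0138), and Gata3 rose 1.89-fold (adjusted p = 0.0388). Klf4, a factor of barrier formation, fell to 1150.4 ± 65.7 CPM, against 1576 ± 127 CPM in controls (log2 -0.45, adjusted p = 0.0211), with the call lost in 4 of 16 alternatives, among them without knockout replicate 2 or control replicate 4 (adjusted p = 0.0532 and 0.0528). Trp63, the master factor of the epidermal lineage, was at 775 ± 48.6 CPM in knockouts and 791 ± 17.3 CPM in controls, and Klf5 at 368 ± 109 and 271 ± 41.5 CPM. Over all 5 lists 19 of 58 tested genes were called, 16 higher and 3 lower, against 4.33% higher and 4.54% lower of all tested genes. The calls of the 16 higher genes were lost in 1 (Grhl3 and Kazn) to 10 (Evpl) of 16 alternatives, and each kept a log2 fold change above 0 in all of them. From the 5 libraries lacking Y-linked transcripts edgeR called 0 of the 58, with 22 at an unadjusted p under 0.05, against 16.8% of all genes tested in that fit.

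**Figure D5:**
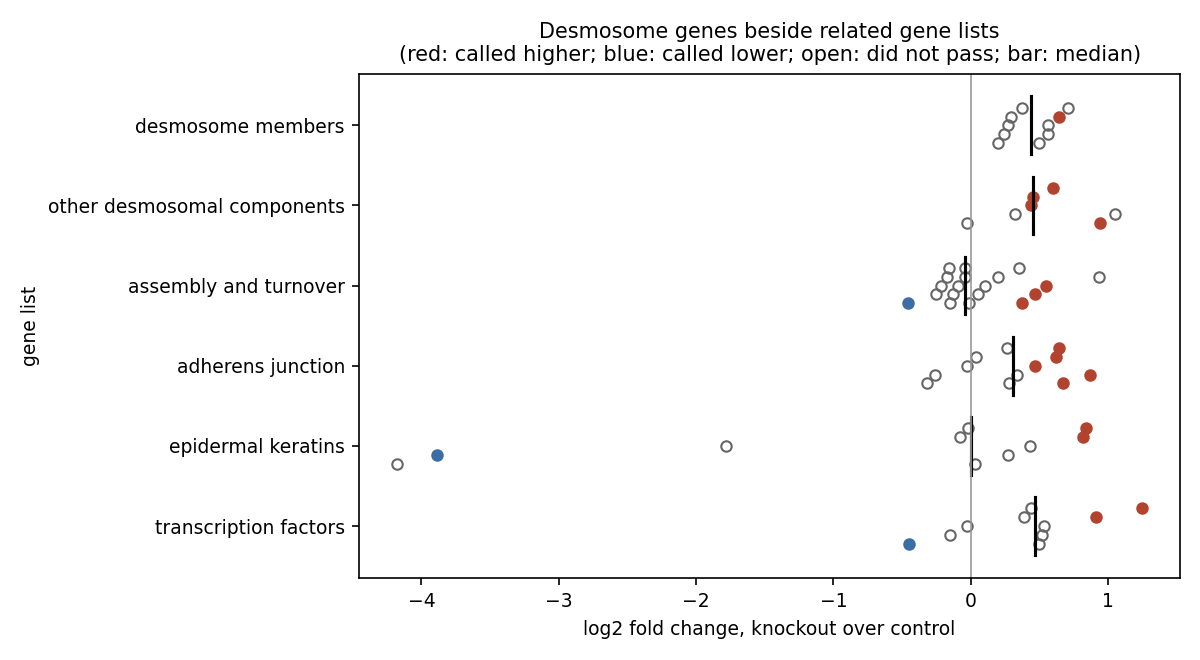
Log2 fold change, knockout over control, of the tested genes of the desmosome set and of 5 related lists (1 point a gene, spread vertically for legibility), filled red where called higher, filled blue where called lower and open where not called, with the median of each list as a bar. The desmosome members lie between 0.20 and 0.71 with 1 filled point, Jup.

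The 3 members that varied most over the 8 libraries were Dsc1, Dsc2 and Dsg3, with SDs of 0.61, 0.51 and 0.38 in log2 CPM. Among tested genes outside the desmosome lists, the profiles nearest to Dsc1 were those of Myo5b, Ereg and Slc5a1, with a root mean square difference of 0.13 to 0.21 in centred log2 CPM over the 8 libraries. Nearest to Dsc2 were Clu, Ddx28 and Kbtbd4 (0.09 to 0.15). Nearest to Dsg3 were Hif1a, Blcap and Cd44 (0.06 to 0.08), which were at 512, 40.1 and 1140.0 CPM in knockouts and 352, 28.1 and 795 CPM in controls. Of these 9 genes, Ddx28 and Hif1a were called higher (edgeR adjusted p = 0.0436 and 0.0412), as were 4.33% of all tested genes. The 9 were chosen by profiles that include the difference between the groups, so these calls are no separate result.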

How the data were processed

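The authors deposited 1 file of raw counts per gene symbol for each library. The submitters' processing notes name TopHat2 2.1.0, SAMtools 0.1.18, Trimmomatic 0.35, FastQC 0.11.4 and the build mm10. Which counter and annotation were used, and whether strand was, is not given in the sources used here. Closing lines for reads outside genes, 15.7 to 21.75% of a library's total, were left out. Genes were filtered with filterByExpr by group, scaled by TMM and tested on all 13016 remaining genes with edgeR's quasi-likelihood test (robust estimation, genotype alone in the model), with Benjamini-Hochberg adjustment and a threshold of 0.05. The SE is the log2 fold change divided by the square root of its F statistic. The tools were DESeq2 1.42.0, limma 3.58.1 and edgeR 4.0.16 in R 4.3.3. The fit was also run on simulated counts, in which genes varied independently and the libraries did not differ in sex. Its outcome is not given here, and no result above rests on it. Log2 CPM used a prior count of 2, and a library counted as having Y-linked transcripts above 1000 counts over 4 genes. Permutation tests enumerated the 70 regroupings.

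Every member was named. In related lists, up to 4 genes that passed (by adjusted p) and the 2 with the highest mean among the rest were named, with the 3 nearest profiles of the 3 most variable members. The members and lists were chosen with earlier results of these data known. Alternatives were other scalings, no filter, DESeq2, limma-voom, a replicate block, a term for Y-linked transcripts, the 5 libraries without them, and leaving out each library.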

Additional observations from a re-analysis of the deposited data

Results flagged for a closer look

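Dsg3 in control replicate 3 was at 479.9 CPM, apart from the other controls at 432.5 to 434.8 CPM, and the gap took 0.951 of the range of that group. It was 1 of 20 groups of 4 libraries examined over the 10 desmosome genes, and chance alone sets about 1 in 20 apart in this way.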

How the results depend on the processing

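All 10 desmosome genes kept a log2 fold change above 0 under each alternative run. The number called, 1 as reported, was 5 with DESeq2, 2 with a term for Y-linked transcripts, 0 in the 5 libraries without them and 1 to 3 leaving out 1 library. The number of all genes called, 1154 as reported, was 2005 with DESeq2, 383 in those 5 libraries and 462 to 1247 leaving out 1 library. The number called over the related lists, 19 as reported, was 0 in those 5 libraries and 2 to 18 leaving out 1 library. The replicate block gave 723 genes, 8 in the related lists and 1 desmosome gene, Jup (adjusted p = 0.0295). Same-numbered libraries did not deviate together (correlations of -0.228 to -0.0528, and -0.11 to 0.25 between other pairs), so the numbers are not taken as pairs. Knockout replicate 4 is numbered by its label, while its deposited counts carry the number 5, so its place in the block is uncertain. For the ratios, leaving out 1 library gave differences of -0.47 to -0.35 for Dsp over Jup and 0.16 to 0.29 for Dsg3 over Dsc3. The others were less steady, at 0.06 to 0.40 for Dsc1 over Dsc3, -0.35 to -0.03 for Dsc1 over Dsc2, 0.02 to 0.10 for Pkp1 over Pkp3 and -0.12 to 0.16, changing sign, for Dsg1a over Dsg3. No permutation p was computed for the ratios with 1 library left out. The causes of these changes were not tested, and some of the fits also had fewer libraries. Dsc2 had the fewest counts of the members, 184 in control replicate 2.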
